A study of Homo sapiens with 6 samples.

Results

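The EGF receptor system of DU145 cells was examined through 10 genes, namely the receptors EGFR, ERBB2 and ERBB3, the EGF-family ligands AREG, EREG, HBEGF, TGFA, BTC and EPGN, and the feedback inhibitor ERRFI1. The genes were taken by symbol from a table of 19727 genes, and all 10 had a row. DU145 is an established human prostate cancer line. The control libraries (NC, genotype labelled normal) came from DU145 carrying lentivirus-NC, and the OE libraries (genotype labelled circCSPP1 overexpression) from DU145 carrying lentivirus-circCSPP1, a vector for the circular RNA of CSPP1. Both were stable lines selected with puromycin, so lentiviral transfer and the selection are shared by the groups, and the sources used here do not describe the lentivirus-NC vector further. Each group had 3 libraries of poly(A) RNA, and the sources used here do not say whether the lines were clones or whether the libraries came from separate cultures, so the p-values measure the spread between these libraries, which may be technical.

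EGF-family ligands are made as membrane proteins, are released by proteases of the ADAM family, and bind ERBB receptors, which then pair and phosphorylate each other. AREG, EREG, HBEGF, TGFA, BTC and EPGN all bind EGFR, while ERBB2 has no known ligand and ERBB3 has little kinase activity of its own. Both act as partners in receptor pairs. ERRFI1 (also called MIG6) binds and inhibits the EGFR kinase, and is itself induced by EGFR signalling. Prostate cancer lines such as DU145 are known to make EGFR together with its ligands, an arrangement called an autocrine loop.

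The study addresses miR-520h, which it describes as bound by circCSPP1, so the members were first searched for its seed match. The mature miRNA is shown with bases 2 to 8, the seed, in capitals (RefSeq, GRCh38.p14).
hsa-miR-520h: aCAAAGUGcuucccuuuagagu
A match of 7 bases, CACTTTG, is complementary to this seed, and the other 7-base form searched was ACTTTGA. At least 1 of the 2 forms was present in the 3′ UTR of 4 of the 10 members and of 29.4% of the 12155 tested genes with a 3′ UTR in GENCODE release 29. EGFR held 2 matches in its 3′ UTR of 6011 nt and ERBB3 held 2 in 1450 nt, while EREG and ERBB2 held 1 each in 3943 and 618 nt. The 4 sites in EGFR, EREG and ERBB2 are shown because they are places where the miRNA of the study could pair with this gene group, with the match in capitals on the transcript strand (GRCh38).
EGFR, 3′ UTR, chr7:55210183-55210210, plus strand: aataacatagCACTTTGttggtttatat
EGFR, 3′ UTR, chr7:55210303-55210330, plus strand: atgttcagcaCACTTTGgttagttcacc
EREG, 3′ UTR, chr4:74388186-74388213, plus strand: gtatctgaccCACTTTGtaatttttgct
ERBB2, 3′ UTR, chr17:39728614-39728641, plus strand: tctccacaccCACTTTGtccatttgcaa
AREG held none, not even the 6-base core ACTTTG, in a 3′ UTR of 269 nt. HBEGF, TGFA and BTC held 2 copies of the 6-base core each, in 1456, 3579 and 1918 nt. EPGN and ERRFI1 held 1 each, in 670 and 1491 nt. The core was present in 9 of the 10 members and in 43.8% of the 12155 tested genes with a 3′ UTR. A match of letters is a description and does not show binding.

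The values are FPKM, fragments scaled to transcript length and to the library total, as deposited. From the smallest values, the depth was 28800000 to 36600000 fragments per library, and it overlapped between the groups. Over all tested genes the lentivirus-NC libraries correlated with each other at 0.9914 to 0.9915 and lentivirus-circCSPP1 replicates 2 and 3 at 0.9898, whereas lentivirus-circCSPP1 replicate 1 correlated with replicates 2 and 3 at 0.970 and 0.979. The departure of replicate 1 from the other lentivirus-circCSPP1 libraries followed the GC content of the transcript (Spearman 0.808 across 7661 genes, which are not independent replicates), so each tested member is given with and without it. CSPP1, whose 1 row does not separate circular from linear RNA, measured 9.11 to 10.1 FPKM in lentivirus-NC and 14.5 to 22.8 FPKM in lentivirus-circCSPP1. The libraries were of poly(A) RNA, and the study reports no change of linear CSPP1 mRNA with its vectors in qRT-PCR. Which form of CSPP1 RNA this difference comes from was not tested. Among prostate luminal markers, KLK2 and KLK3 were listed at 0 in every library and TMPRSS2 at 0 to 0.07 FPKM. The summed level of 5 epithelial markers was 3346 to 3492 FPKM in lentivirus-NC and 2712 to 3608 FPKM in lentivirus-circCSPP1, within which KRT8, KRT18, EPCAM and CDH1 had fallen and KRT7 had risen (adjusted p 0.046 or less in limma). The summed level of 6 leukocyte, endothelial, fibroblast and liver markers was 2.70 to 4.39 FPKM against 1.09 to 1.45 FPKM, with COL1A1 (adjusted p = 0.010 from limma) the only one above 0.16 FPKM and CD3E at 0 throughout. The part of these markers in the results below was not tested, and in bulk RNA fewer cells of a type and less RNA per cell cannot be told apart.

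EGFR and 3 of its ligands, AREG, EREG and HBEGF, were higher with lentivirus-circCSPP1, by 1.64-fold to 2.15-fold in mean FPKM. TGFA had means of 37.6 and 38.0 FPKM. ERBB2 and ERBB3 had lower values, and ERRFI1 had higher values, none of which passed the test. Genes were tested with limma on log2(FPKM + 1), where fold changes of low genes are understated, and called at a Benjamini-Hochberg adjusted p under 0.05 over the 12322 genes that averaged 1 FPKM or more. Of the 10 members, 9 were tested, and EPGN was not. By this rule 4 of the 9 were higher, against 4.69% of all tested genes. By the same rule 0 of the 9 were lower, against 6.66% of all tested genes, and 1 member, ERBB2, was lower at an unadjusted p under 0.05. An unmoderated fit also called 0 lower. The median log2 fold change of the 9 was 0.47, beside -0.03 for all tested genes. The groups did not overlap in 7 of the 9, against 36.4% of tested genes. In 5 of them every lentivirus-circCSPP1 library lay above every lentivirus-NC library, which held for 16.0% of tested genes, and in 2 every one lay below, which held for 20.5%. At the thresholds of the study, an unadjusted p under 0.01 and a log2 fold change of 1.5 or more in size, none of the 9 members passed in limma, while 0.195% of tested genes did. Permuting 3 libraries against 3 (exact, two-sided) allows no p below 0.10, and this value was reached by EGFR, ERBB2, ERBB3, AREG, EREG, HBEGF and ERRFI1.

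**Figure D1:**
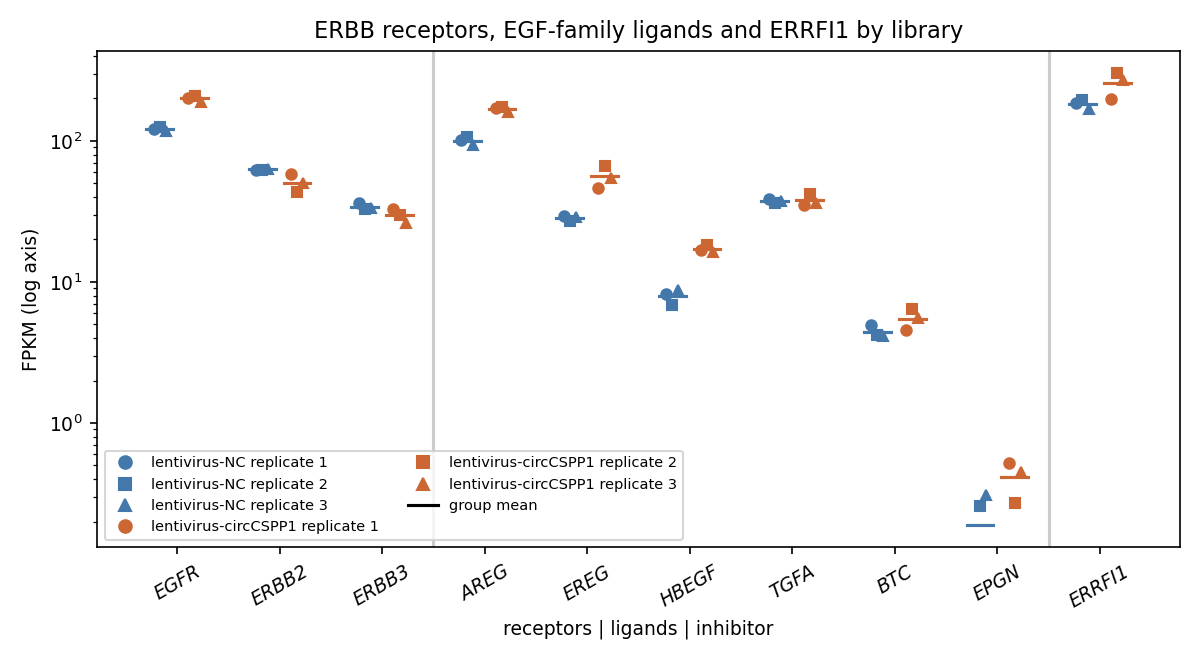
FPKM on a log axis for the 10 genes, with 1 point per library (shape marks the replicate number, colour the lentivirus) and a bar at each group mean. EPGN in lentivirus-NC replicate 1 was 0 and has no point. The EGFR, AREG, EREG and HBEGF points of the groups separate, whereas those of TGFA and BTC overlap.

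Of the receptors, EGFR alone passed the test. EGFR, the receptor that all 6 ligands share, lies on chromosome 7 from 55019021 to 55211628 on the plus strand (GRCh38, GENCODE) with 28 exons in its principal transcript. An antisense gene, EGFR-AS1, overlaps it, and whether counting used the strand is not stated. With replicates in the order 1, 2 and 3, here and for the genes that follow, EGFR stood at 122, 126 and 118 FPKM in lentivirus-NC and at 203, 210 and 189 FPKM in lentivirus-circCSPP1. The groups did not overlap, and the gap between them was wider than the range within either. Its log2 fold change was 0.71 (95% interval 0.53 to 0.88, adjusted p = 0.0033 from limma), and it lay between 0.66 and 0.76 over 18 alternative settings, with an adjusted p of at most 0.029. Without lentivirus-circCSPP1 replicate 1 it was 0.70.

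ERBB2, the partner receptor without a ligand, lies on chromosome 17 from 39687914 to 39730426. Its values were 62.5, 62.2 and 63.4 FPKM in lentivirus-NC and 57.9, 43.3 and 50.4 FPKM in lentivirus-circCSPP1. Every lentivirus-circCSPP1 library was below the lentivirus-NC libraries, which differed among themselves by little more than 1 FPKM, and replicate 1 was the nearest to them. This log2 fold change, -0.32 (95% interval -0.58 to -0.05), did not pass (adjusted p = 0.12 from limma). It was -0.42 without replicate 1 (adjusted p = 0.012) and -0.27 after correction of each library for GC content and length (adjusted p = 0.019). Leaving out that replicate also raised the number of genes called to 1620 higher and 1894 lower of 12334, from 578 and 821 of 12322.

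ERBB3, the partner with a weak kinase, lies on chromosome 12 from 56076799 to 56103505. It measured 36.2, 33.1 and 33.2 FPKM in lentivirus-NC and 32.7, 29.8 and 26.3 FPKM in lentivirus-circCSPP1. The difference of -0.20 on the log2 scale did not pass (limma, adjusted p = 0.26). The highest lentivirus-circCSPP1 library was under 1 FPKM below the lowest lentivirus-NC library. Without lentivirus-circCSPP1 replicate 1 the value was -0.28 (adjusted p = 0.048). ERBB4, the remaining receptor of the family, was at 0 to 0.30 FPKM and was not tested.

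The EGFR and ERBB2 transcripts differ in GC content (47.5% and 60.3%), and the part of this in their ratio was not tested. Within a library the ratio of EGFR to ERBB2 does not depend on how libraries are scaled. It was 1.95, 2.02 and 1.87 in lentivirus-NC and 3.50, 4.85 and 3.74 in lentivirus-circCSPP1. The groups did not overlap, and the mean log2 ratio differed by 1.04 (exact two-sided permutation test, p = 0.10, the smallest possible, and 0.13 adjusted over the 4 ratios computed). Every lentivirus-circCSPP1 library was already higher in EGFR and lower in ERBB2, so this separation follows from those values.

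**Figure D2:**
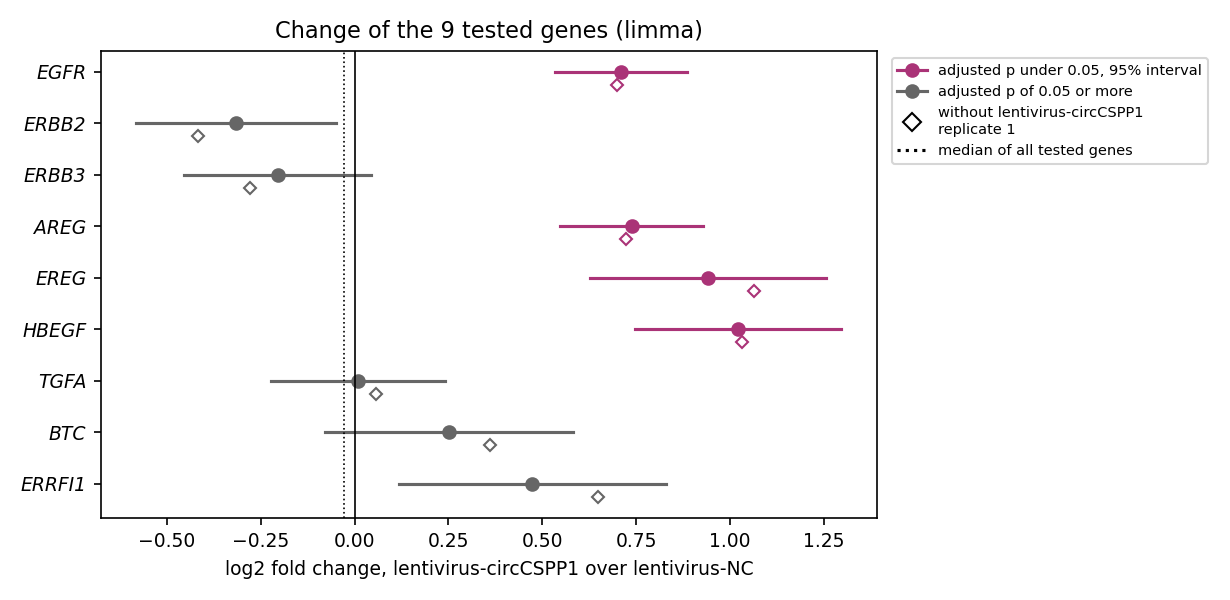
Log2 fold change (x axis, lentivirus-circCSPP1 over lentivirus-NC) of the 9 tested genes with 95% limma intervals, coloured where the adjusted p was under 0.05. Diamonds give the value without lentivirus-circCSPP1 replicate 1 and the dotted line the median of all tested genes. The intervals of EGFR, AREG, EREG and HBEGF lie wholly above 0.5, and the diamonds move furthest for ERRFI1, EREG, BTC and ERBB2.

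AREG, which encodes amphiregulin, was the most abundant ligand in every library. It lies on chromosome 4 from 74445134 to 74455009 on the plus strand. Its values were 101, 106 and 93.4 FPKM in lentivirus-NC and 171, 173 and 159 FPKM in lentivirus-circCSPP1, and the gap between the groups was wider than the range within either. Its log2 fold change was 0.74 (95% interval 0.55 to 0.93, adjusted p = 0.0037 from limma), and it was called under all 18 alternatives, between 0.68 and 0.78. Without lentivirus-circCSPP1 replicate 1 it was 0.72.

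EREG, which encodes epiregulin, lies next to AREG on chromosome 4, from 74365143 to 74388751. It measured 29.2, 27.1 and 28.8 FPKM in lentivirus-NC and 46.6, 66.8 and 54.5 FPKM in lentivirus-circCSPP1. The groups did not overlap, and the spread was wider with lentivirus-circCSPP1, where replicate 1 was lowest. The log2 fold change was 0.94 (95% interval 0.63 to 1.26, adjusted p = 0.0078 from limma), rising to 1.06 without replicate 1. It was called under 17 of 18 alternatives, the exception being the unmoderated fit (adjusted p = 0.0501).

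HBEGF, heparin-binding EGF-like growth factor, lies on chromosome 5 from 140332843 to 140346631 on the minus strand. It had the largest change of the 9 genes from a low level, 8.24, 6.86 and 8.71 FPKM in lentivirus-NC against 16.8, 18.1 and 16.3 FPKM in lentivirus-circCSPP1. The groups lay far apart compared with the spread within them. The log2 fold change was 1.02 (95% interval 0.75 to 1.30, adjusted p = 0.0042 from limma) and was called under all 18 alternatives, with 1.03 without lentivirus-circCSPP1 replicate 1. On its transcript of 2386 nt these values correspond to 471 to 1506 fragments. The intervals of EGFR, AREG, EREG and HBEGF overlap, and differences in size between their changes were not tested.

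TGFA, transforming growth factor alpha, lies on chromosome 2 from 70447280 to 70554193. Its values were 39.1, 36.3 and 37.5 FPKM in lentivirus-NC and 35.3, 42.3 and 36.3 FPKM in lentivirus-circCSPP1, and the groups overlapped. Its change on the log2 scale was 0.01 (95% interval -0.22 to 0.24, adjusted p = 0.97 from limma), an interval that lies below those of AREG, EREG and HBEGF. It was 0.06 without lentivirus-circCSPP1 replicate 1, and its sign turned negative without lentivirus-NC replicate 2 or lentivirus-circCSPP1 replicate 2.

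BTC, betacellulin, on chromosome 4 from 74744759 to 74794686 on the minus strand, was scarce, at 4.97, 4.22 and 4.13 FPKM in lentivirus-NC and 4.54, 6.44 and 5.53 FPKM in lentivirus-circCSPP1. The groups overlapped through lentivirus-circCSPP1 replicate 1, and the log2 fold change of 0.25 (95% interval -0.08 to 0.58) had an adjusted p of 0.29 in limma. It was 0.36 without that library (adjusted p = 0.057), and 0.31 after correction for GC content and length (adjusted p = 0.046, or 0.053 with the replicate block), the only 1 of 17 alternatives in which it passed. EPGN, epigen, on the same chromosome from 74308473 to 74315307, was read at 0, 0.26 and 0.31 FPKM in lentivirus-NC and 0.52, 0.27 and 0.45 FPKM in lentivirus-circCSPP1, which is 0 to 20 fragments on a transcript of 1196 nt. A count of 0 in lentivirus-NC replicate 1 allows up to 0.0853 FPKM (3 fragments, counting error only). With no filter on low values its log2 fold change was 0.25 (limma, adjusted p = 0.25).

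The order of the ligands changed in a single place. In lentivirus-NC it was AREG, TGFA, EREG, HBEGF, BTC and EPGN, and in lentivirus-circCSPP1 EREG stood above TGFA, with no overlap between neighbours in either group. The ratio of EREG to TGFA was 0.748, 0.745 and 0.769 in lentivirus-NC and 1.32 to 1.58 in lentivirus-circCSPP1, so that it passed 1 in every lentivirus-circCSPP1 library and in no lentivirus-NC library. The ratio of AREG to TGFA was 2.59, 2.92 and 2.49 against 4.84, 4.09 and 4.38. Both ratios gave the smallest exact permutation p of 0.10 (two-sided, 0.13 adjusted over 4 ratios). AREG and EREG had already separated between the groups while TGFA was flat, so these p-values add no separate support. The summed FPKM of the 6 ligands was 183, 181 and 173 in lentivirus-NC and 275, 307 and 272 in lentivirus-circCSPP1. AREG made up 54.1% to 58.7% of this sum in lentivirus-NC and 56.4% to 62.2% in lentivirus-circCSPP1, ranges that overlap. TGFA made up 20.1% to 21.7% in lentivirus-NC and 12.9% to 13.8% in lentivirus-circCSPP1, ranges that do not overlap. The shares were not tested.

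Among all 10 genes the order of mean FPKM in lentivirus-NC was ERRFI1, EGFR, AREG, ERBB2, TGFA, ERBB3, EREG, HBEGF, BTC and EPGN, and no neighbours overlapped. ERRFI1 lay at the 96.1 percentile of the lentivirus-NC means of tested genes, EGFR at 93.4 and AREG at 91.7, so that the receptor and its main ligand were both among the abundant transcripts. HBEGF lay at 31.6 and BTC at 19.2. In lentivirus-circCSPP1 EREG moved up to stand between AREG and ERBB2, and ERRFI1 overlapped EGFR and EREG overlapped ERBB2.

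**Figure D3:**
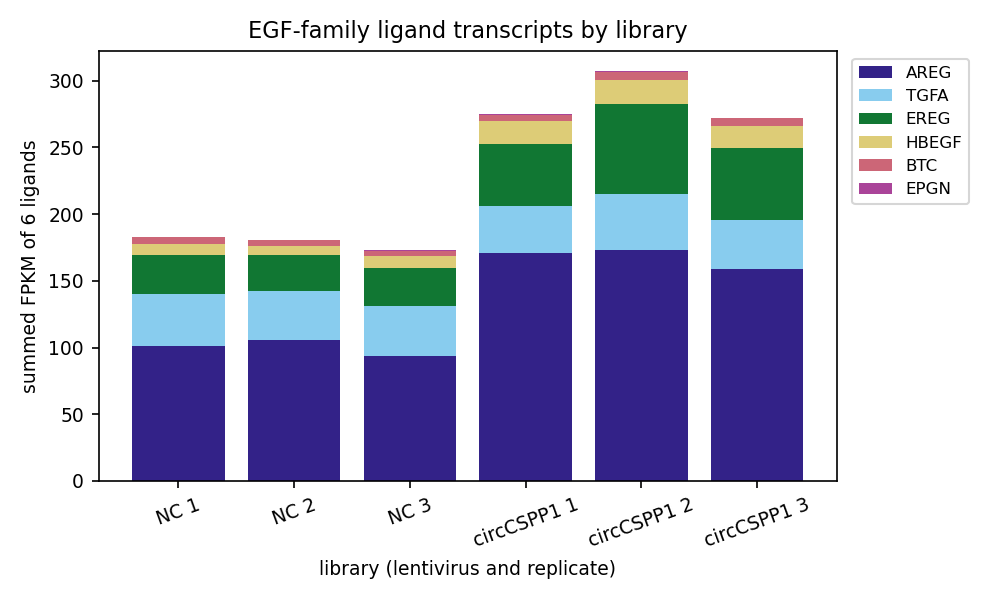
Summed FPKM of the 6 EGF-family ligands in each library (bars from 0, 1 bar per library), split by ligand. The lentivirus-circCSPP1 bars reach 272 to 307 FPKM and the lentivirus-NC bars 173 to 183 FPKM, with TGFA blocks of like height throughout.

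ERRFI1, the inhibitor, was the most abundant of the 10 genes in lentivirus-NC. It lies on chromosome 1 from 8004404 to 8026308 on the minus strand. Its values were 186, 193 and 168 FPKM in lentivirus-NC and 199, 301 and 272 FPKM in lentivirus-circCSPP1. The groups did not overlap, but lentivirus-circCSPP1 replicate 1 lay close to lentivirus-NC replicate 2 and far below replicates 2 and 3 of its own group. Its log2 fold change of 0.47 (95% interval 0.12 to 0.83) did not pass (adjusted p = 0.089 from limma). Without replicate 1 it was 0.65 (adjusted p = 0.0038), and after correction for GC content and length it was 0.52 (adjusted p = 0.0047). The ratio of ERRFI1 to EGFR was 1.52, 1.54 and 1.42 in lentivirus-NC and 0.979, 1.44 and 1.44 in lentivirus-circCSPP1, and the groups overlapped (exact two-sided permutation test, p = 0.30).

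The place of lentivirus-circCSPP1 replicate 1 among its group followed the GC content of the transcript in these genes too. Against the mean of replicates 2 and 3 on the log2(FPKM + 1) scale, replicate 1 was lower by 0.37 for EREG (36.1% GC), by 0.33 for BTC (40.2%) and by 0.53 for ERRFI1 (43.4%). It was within 0.05 for AREG (45.3%), EGFR (47.5%) and HBEGF (50.9%), and higher by 0.22 for ERBB3 (52.0%) and 0.30 for ERBB2 (60.3%). TGFA, at 45.9%, departed by -0.15. EGFR, AREG and HBEGF had values in replicate 1 close to those of the other lentivirus-circCSPP1 libraries, and the calls on ERBB2, ERBB3 and ERRFI1 were the ones that changed without it.

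AREG, EREG, EPGN and BTC lie together on chromosome 4, a feature that was not used to choose them. Positions were compared by lower coordinate, which on the minus strand is the end of the gene. GENCODE release 29 places 17 genes of the table within 1 Mb of the start of AREG, and 11 of them were tested. Of these, 4 were higher (AREG, EREG, CXCL8 and CXCL2) and 1 was lower (CXCL6) at an adjusted p under 0.05 in limma, where 11.4% of all tested genes were called in either direction. The window was centred on AREG, which had passed, and of the 8 tested genes that are not members 3 were called (CXCL8, CXCL2 and CXCL6), so the count is a description of the region. The neighbouring block holds chemokine genes of the CXCL family, secreted attractants of neutrophils, whose members resemble each other closely enough that fragments could be split between them.

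The chemokines went in both directions. CXCL2 lies on the minus strand, with its lower coordinate 348 kb from that of AREG. It measured 45.2, 43.0 and 43.6 FPKM in lentivirus-NC and 107, 86.9 and 86.0 FPKM in lentivirus-circCSPP1 (log2 fold change 1.06, adjusted p = 0.0027 from limma). CXCL6, 609 kb away, fell from 2.99 ± 0.246 to 0.850 ± 0.170 FPKM (SD, n = 3 in each group, log2 fold change -1.11, adjusted p = 0.0032 from limma). CXCL8, 705 kb away, stood at 50.9, 50.8 and 48.3 FPKM in lentivirus-NC and 73.6, 122 and 90.4 FPKM in lentivirus-circCSPP1 (log2 fold change 0.89, adjusted p = 0.019 from limma). That call was lost in the unmoderated fit, and also without any 1 of the lentivirus-NC libraries or without lentivirus-circCSPP1 replicate 3, where its adjusted p reached up to 0.096. CXCL1, CXCL3 and CXCL5 had log2 fold changes of -0.29, 0.61 and -0.06 and did not pass, though CXCL1 passed under 2 and CXCL3 under 6 of 18 alternatives, CXCL1 without lentivirus-circCSPP1 replicate 1 among them (adjusted p = 0.022). The nearest tested genes on either side of the ligands did not pass either, with 0.35 for MTHFD2L (limma, adjusted p = 0.17, and 0.037 without lentivirus-circCSPP1 replicate 1) and 0.05 for PARM1 (adjusted p = 0.81).

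**Figure D4:**
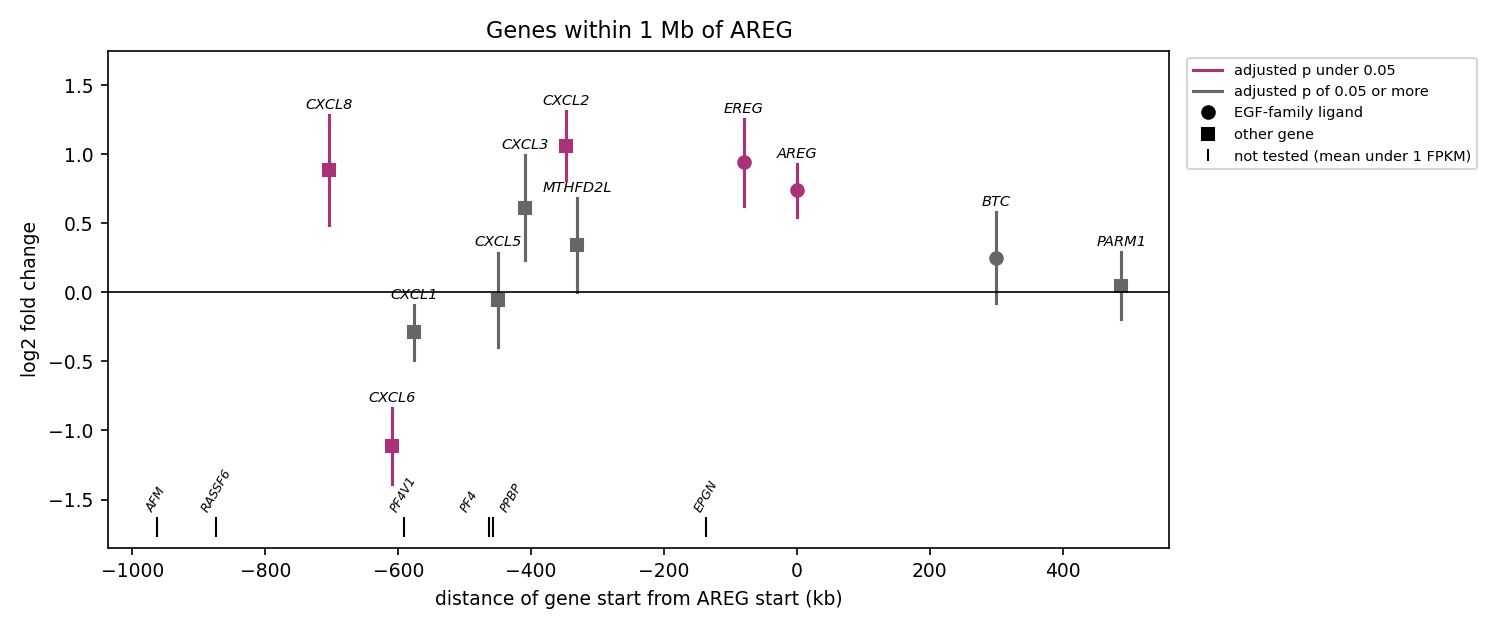
Log2 fold change with its 95% limma interval (y axis) against distance from the start of AREG in kb (x axis), for the 11 tested genes within 1 Mb. Distance is to each gene's lower coordinate, which on the minus strand is its end, though the axis label says gene start. Circles mark EGF-family ligands, squares other genes, colour an adjusted p under 0.05, and ticks at the foot the 6 genes that were not tested. AREG and EREG are higher, BTC and PARM1 on one side and MTHFD2L on the other did not pass, and the CXCL genes lie on both sides of 0.

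Promoters were searched on both strands from 250 bases before to 50 after the start (RefSeq, GRCh38.p14), where 9 of the 10 members had an entry and ERBB3 did not. Percentages below count promoter entries, while a member is counted when any of its entries held the motif. EGFR and TGFA each had an additional entry. The cyclic AMP response element, TGACGTCA, was found in 2.22% of the 20997 promoters of genes in the table, and among the members in that of AREG. The TATAAA box was found in 9.27%, and among the members in those of AREG, EREG and EPGN, all in the chromosome 4 group, and at a start of EGFR inside the gene. Matches in the members' promoters did not overlap each other. These windows are shown because the 3 ligands are neighbours and share the box, with the motif in capitals.
AREG, response element 65 bases before the start, chr4:74445061-74445088, plus strand: ggccgggcctTGACGTCAtgggctgcgg
AREG, box 29 bases before the start, chr4:74445097-74445122, plus strand: cggctgagccTATAAAgcggcaggtg
EREG, box 32 bases before the start, chr4:74365103-74365128, plus strand: ggctccctagTATAAAgttcgcagca
EPGN, box 29 bases before the start, chr4:74308431-74308456, plus strand: cttcatgaaaTATAAAtgcaacaaag
The AP-1 motif TGANTCA, present in 6.22% of promoters, was found in that of ERBB2 and at the same inner start of EGFR, and the EGR motif GCGNGGGCG, present in 12.3%, in that of 0 of the 9 members. A match is a description of letters in this window, and none says whether a factor bound there.

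The rest of the pathway was read from lists written from general knowledge. Of the other receptors and ligands (ERBB4, EGF and the neuregulins NRG1 to NRG4), NRG2 was the only 1 of 6 that was tested, at 5.62 ± 0.510 and 6.23 ± 0.852 FPKM (SD, n = 3 in each group) with an adjusted p of 0.58. EGF itself was at 0.75, 1.10 and 0.66 FPKM in lentivirus-NC and 0.41, 0.51 and 0.42 FPKM in lentivirus-circCSPP1, under the filter.

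Among proteases and regulators of ligand shedding, 10 of 12 genes were tested, with 1 higher and 4 lower (4.69% and 6.66% of all tested genes) and a median log2 fold change of -0.28 beside -0.03 for all genes. ADAM17, the main sheddase of AREG, EREG, HBEGF and TGFA, was the higher one, from 34.2, 36.1 and 35.8 FPKM in lentivirus-NC to 45.0, 56.1 and 45.7 FPKM in lentivirus-circCSPP1 (log2 fold change 0.45, adjusted p = 0.037 from limma). ADAM17 is outside the rule for named genes and was named after its value was seen. ADAM19, another member of the family, fell from 11.8 ± 0.362 to 5.35 ± 0.615 FPKM (SD, n = 3 in each group, log2 fold change -1.02, adjusted p = 0.0038), a call kept under all 18 alternatives. RHBDF2, the inactive rhomboid iRHOM2 that carries ADAM17 to the cell surface, fell by 0.57 on the log2 scale (limma, adjusted p = 0.029), the sheddase ADAM9 by 0.55 (adjusted p = 0.042) and the rhomboid protease RHBDL2 by 0.47 (adjusted p = 0.039). These 3 and ADAM17 lost the call without any 1 lentivirus-NC library or without lentivirus-circCSPP1 replicate 3, where the lower genes numbered 1 and the higher genes 0. Over all tested genes those fits called 143 to 196 higher and 150 to 264 lower. Each of these genes also lost the call in the unmoderated fit, and RHBDF2, RHBDL2 and ADAM17 lost it without lentivirus-circCSPP1 replicate 2. Over the alternatives the adjusted p reached 0.121 for RHBDF2, 0.144 for ADAM9, 0.145 for RHBDL2 and 0.153 for ADAM17.

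Of 29 genes for adaptors and the RAS, ERK and PI3K relays, all tested, 0 were higher and 1 was lower at an adjusted p under 0.05 in limma, beside 4.69% and 6.66% of all tested genes, and the median was -0.03, as for all genes. Over the alternatives 0 to 3 were higher and 0 to 5 lower. Without lentivirus-circCSPP1 replicate 1 the counts were 3 and 5 of 29, in a fit that called 1620 higher and 1894 lower of all 12334 tested genes. STAT3, a transcription factor that receptor kinases activate, was the lower one, from 153 ± 3.12 to 111 ± 6.31 FPKM (log2 fold change -0.46, adjusted p = 0.012), which rose to at most 0.074 when any 1 lentivirus-NC library or lentivirus-circCSPP1 replicate 3 was left out. Of 24 genes for receptor restraint and trafficking, 2 were higher and 0 lower, beside 4.69% and 6.66% of all tested genes, with a median of 0.01. LRIG3 (0.44, adjusted p = 0.027), a membrane protein of the family that includes the EGFR restraint LRIG1, and RNF41 (0.41, adjusted p = 0.046), a ubiquitin ligase that targets ERBB3, were the higher ones. Both lost the call without any 1 lentivirus-NC library and without lentivirus-circCSPP1 replicate 3, and their adjusted p reached 0.138 and 0.182 over the alternatives. LRIG3 was called under 12 and RNF41 under 9 of 18 alternatives.

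Genes known to be induced through ERK formed the list with the most calls. Of 18, 17 were tested and 12 were higher and 0 lower, beside 4.69% and 6.66% of all tested genes, with a median log2 fold change of 0.74. SPRED3 had the lowest value of this list, -0.40 (adjusted p = 0.059, named after its value was seen). The list was chosen with results of these data known, so its count is not independent evidence of its direction. DUSP6, the ERK phosphatase, measured 10.4, 11.6 and 12.1 FPKM in lentivirus-NC and 47.2, 42.7 and 43.8 FPKM in lentivirus-circCSPP1 (log2 fold change 1.88, adjusted p = 0.00039 from limma). FOSL1, an AP-1 subunit, measured 62.0, 64.1 and 68.8 FPKM against 146, 180 and 157 FPKM (log2 fold change 1.29, adjusted p = 0.0013 from limma). SPRY4 and EGR1, with log2 fold changes of 1.78 and 1.23, complete the 4 largest changes, and in each the groups were far apart. All 4 were called under all 18 alternatives.

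**Figure D5:**
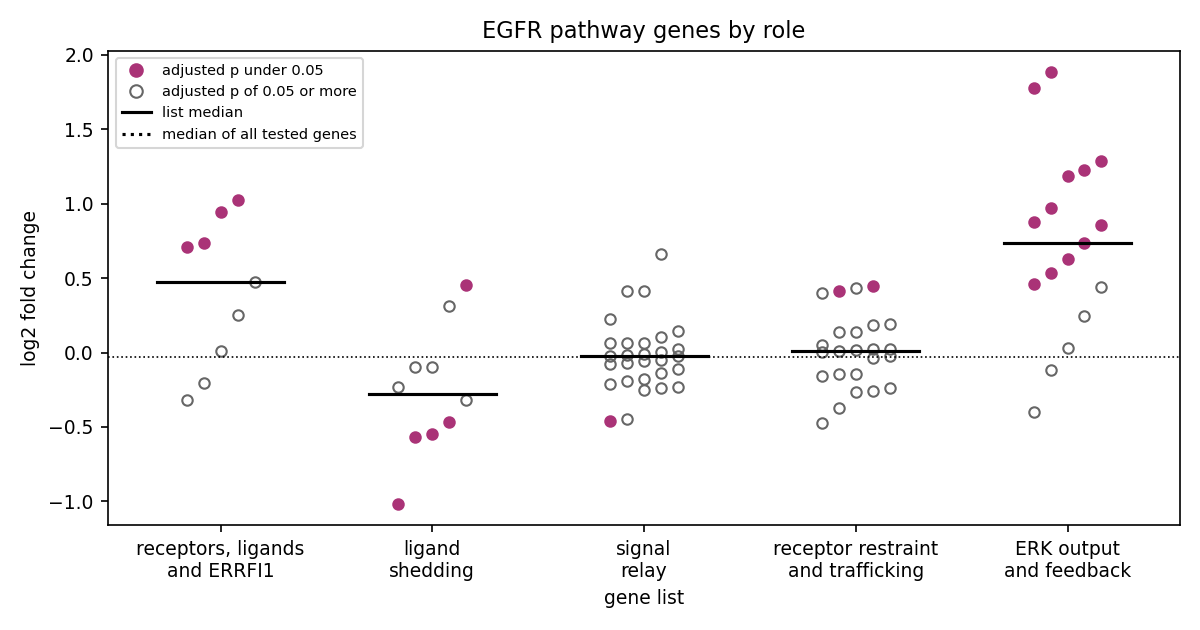
Log2 fold change (y axis) of each tested gene, 1 point per gene, in the receptor and ligand group and in 4 pathway lists, filled where the adjusted p was under 0.05. Horizontal bars give each list's median (0.47, -0.28, -0.03, 0.01 and 0.74 from left to right) and the dotted line that of all tested genes, -0.03.

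The genes whose pattern over the 6 libraries was most like that of each called member were looked up on log2(FPKM + 1) as a description. They were BCOR (Pearson r 0.9997) and C1orf174 (0.9985) for EGFR, C1orf174 (0.9975) and EGFR itself (0.9970) for AREG, TIPARP (0.9962) and UBE2Z (0.9946) for EREG, and POLR3C (0.9981) and EID3 (0.9978) for HBEGF. With 6 libraries in 2 separated groups such values mostly carry the difference between the groups.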

How the data were processed

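The authors isolated poly(A) RNA from DU145 cells, sequenced it paired-end on an Illumina NovaSeq and deposited 1 table of FPKM values rounded to 2 decimals. The submitters' processing notes name hg38. The aligner, the FPKM program and the annotation are not given in the sources used here. Columns were matched to samples by group and replicate number, and 0 columns were left over. FPKM is relative to the library total, so a gene also moves when others take more of the library.

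Values were taken to log2(FPKM + 1), genes averaging 1 FPKM or more were kept (12322 tested, 7405 not), and the groups were compared with limma 3.58.1 in R 4.3.3 (trend, two-sided, no covariate, Benjamini-Hochberg adjustment). The code was tested on simulated data with independent noise and with changes larger than those of the members. This checks the code and gives no error rate or power for these libraries. Depth was read from the step of low values in single-transcript genes under 800 nt. Transcripts, GC content and positions came from GENCODE release 29. No count model or set test was run. Some marker genes and 2 of the seed-match sequences are not reported here. The members and lists were chosen with earlier results of these data known. Genes named were the members, up to 4 called genes per list by size, the tested genes near AREG and the 2 genes most like each called member. Alternatives covered pseudocount, filter, scaling, variance model, GC content and length, the replicate block and leaving out each library. Figures were drawn with matplotlib 3.10.9.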

Additional observations from a re-analysis of the deposited data

How the results depend on the processing

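The 4 members called higher (EGFR, AREG, EREG and HBEGF) were called by all of the 18 alternatives, except EREG without moderation, and 3 to 6 members were called higher in all. No member was lower in the reported fit, while 1 was after correction for GC content and length, with or without the replicate block, and between 0 and 2 were when 1 library was left out. TGFA turned to -0.0153 without lentivirus-NC replicate 2 and to -0.0691 without lentivirus-circCSPP1 replicate 2, in a range of -0.0691 to 0.0580 when 1 library was left out. CXCL5 turned to 0.0414 with quantile normalization, to 0.0219 after the GC correction with or without the block, and to 0.0907 without lentivirus-circCSPP1 replicate 1, in a range of -0.146 to 0.0907. Over all genes, 578 higher and 821 lower became 381 and 453 without moderation, 1821 and 1698 after the GC correction, and 1407 and 1335 with the block added. A filter at 5 FPKM, which tests fewer genes, left 541 lower. Leaving out 1 library gave 143 to 1620 higher and 150 to 1894 lower, fewest without lentivirus-NC replicate 1 and most without lentivirus-circCSPP1 replicate 1. For the other changes the cause was not tested. The summed ligand FPKM, with a log2 ratio of 0.67, moved by less than the spread between replicates under each of its alternatives.

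The series' design text calls the libraries paired without saying what a number marks. The correlations of same-numbered deviations from the group means were 0.0734, 0.00653 and 0.0572, and those of other numbers lay between -0.067 and 0.0358. Lentivirus-circCSPP1 replicates 1 and 3 correlated best with their own number, and replicate 2 with lentivirus-NC replicate 3. These weak values do not decide whether the numbers pair the libraries, so the block is given as an alternative only. With the replicate block 364 genes were higher and 559 lower, and EGFR, AREG, EREG and HBEGF stayed called (adjusted p 0.010 to 0.016). ADAM17 (adjusted p = 0.061), RHBDL2 (0.081), LRIG3 (0.075) and RNF41 (0.092) lost the call in limma with the block, which left 0 higher in the shedding list and 0 in the restraint list, and CXCL3 gained it (0.042). Scaling moved the median of all genes by under 0.05.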
